A study of Rattus norvegicus with 8 samples.

Results

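Signals of 10 genes of bone morphogenetic protein (BMP) signalling were followed in rat lung endothelial cells: the receptors Bmpr2, Acvrl1, Eng and Bmpr1a, the ligands Bmp2, Bmp4 and Bmp6, and the receptor-activated SMADs Smad1, Smad5 and Smad9. They were taken by symbol, through the accession of each array probe, out of 15153 symbols on the array. Each of the 10 had a single probe, printed as 2 spots for 8 of the genes and as 10 spots for Acvrl1 and Smad1. Sprague-Dawley rats aged 8 to 10 weeks had been given monocrotaline at 60 mg/kg (4 samples) or saline (4 samples) under the skin, and lungs were taken 5 days later. Monocrotaline is a plant alkaloid that injures lung vessels and is used to model pulmonary arterial hypertension. The cells were pulled from collagenase-digested whole lung with beads that carry an antibody to CD31, an adhesion molecule that platelets and some leukocytes share with endothelium, and their RNA was read without culture, 1 array per sample. The comparison asks which endothelial genes differ at an early stage of the model, and no genetic change was made in either group.

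BMP ligands bind a complex of type I and type II receptors on the cell surface. The type II receptor, BMPR2, switches on the type I kinase, which then phosphorylates SMAD1, SMAD5 or SMAD9, and these enter the nucleus with SMAD4 and turn on genes such as the Id family. Endothelium uses ALK1 (the product of Acvrl1) with the co-receptor endoglin (Eng). Inherited loss of BMPR2 is the best known genetic cause of pulmonary arterial hypertension, and changes in ACVRL1 and ENG cause hereditary haemorrhagic telangiectasia.

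As given below, Bmpr2 and Eng were both highest on saline replicate 4 and had their 2 lowest signals on monocrotaline replicates 3 and 4. Their order on the other arrays differed. Acvrl1 and the mean of the endothelial markers had the same highest array and the same 2 lowest arrays, so that trait is not particular to Bmpr2 and Eng. The promoters of Bmpr2 and Eng are shown because of the arrays they shared. Each runs from 250 bases before to 50 bases after the gene's start in the RefSeq annotation of build GRCr8, on the plus strand (Bmpr2 at chr9:68686566-68686865, Eng at chr3:36332029-36332328). Of the 10 genes, 8 had an entry there, and Acvrl1 and Bmp2 had none. Capitals mark matches, on either strand, to any of 5 motifs: GGCGCC (a BMP SMAD element), CAGACA (a SMAD element), GGGCGG (the GC box of SP and KLF factors), GGAAGT (an ETS core) and CACCC (a KLF element).
Bmpr2: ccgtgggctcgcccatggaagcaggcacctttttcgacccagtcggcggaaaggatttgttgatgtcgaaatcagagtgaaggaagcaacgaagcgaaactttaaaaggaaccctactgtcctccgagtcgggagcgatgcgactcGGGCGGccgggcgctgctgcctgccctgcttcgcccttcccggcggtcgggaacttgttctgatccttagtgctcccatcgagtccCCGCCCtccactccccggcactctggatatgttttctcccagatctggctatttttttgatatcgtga
Eng: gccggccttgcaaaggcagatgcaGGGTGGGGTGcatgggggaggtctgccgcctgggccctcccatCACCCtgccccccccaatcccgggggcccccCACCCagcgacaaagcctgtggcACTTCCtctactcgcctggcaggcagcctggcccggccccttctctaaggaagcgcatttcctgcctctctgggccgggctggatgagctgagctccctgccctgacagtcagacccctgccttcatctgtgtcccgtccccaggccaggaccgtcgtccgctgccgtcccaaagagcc
The Bmpr2 stretch holds GGGCGG at 2 places and none of the other 4 motifs, and the Eng stretch holds CACCC at 4 places and GGAAGT at 1 place. The motifs could overlap one another; GGGCGG was found in 33.1% of all 33469 promoters in the table, CACCC in 54.9% and GGAAGT in 22.6%. GGCGCC, present in 11.0% of all promoters, was found in 1 of the 8 promoters, that of Smad9, and CAGACA, present in 21.1%, in those of Bmp4 and Smad9. Of the 8 promoters, 5 held GGGCGG, 4 held CACCC and 1 held GGAAGT. The promoters of Bmpr2 and Eng shared none of the motifs searched. A match is a run of letters only, and binding was not measured in these data.

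Levels are given as scaled log2 signals, the log2 of the scanner's processed signal minus the 75th percentile of that array, so that 0 is that percentile. Probes differ in how well they bind, so a level is read between arrays for 1 gene and not as an abundance between genes. Where a probe is named as the brightest of its list, that says only how it was chosen. The number of arrays, 4 per group, limits every value. Between 70.8% and 77.7% of the non-control spots were well above background on an array. All 8 arrays lay on 1 slide, saline in its row 1 and monocrotaline in its row 2, so slide row and group cannot be told apart. The labels number the samples without saying whether each came from its own rat, and if they did not, the p-values measure a spread that may be technical.

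Of the 10 genes 0 passed the test between monocrotaline and saline (limma, Benjamini-Hochberg adjusted p under 0.05 over 21652 probes), while 1.44% of all probes tested passed, 1.36% as higher and 0.0739% as lower. The number was 0 under each of the 21 alternatives tried too, with 9 of the 10 tested where a probe had to be above background on all 8 arrays. Even so, Bmpr2, Acvrl1, Eng, Bmp2, Bmp6 and Smad1 had negative log2 fold changes, between -0.85 and -0.42. Bmp4, Smad5 and Smad9 had values between -0.02 and 0.07, and Bmpr1a varied most between arrays. In all 7 of the 10 values were negative, as were 53.6% of those of all probes tested. The median of the 10 was -0.46, against -0.02 over all probes tested. At an unadjusted p under 0.05, 4 of the 10 (Bmpr2, Bmp2, Bmp6 and Smad1) were lower and 0 higher, against 7.06% of all probes lower and 6.73% higher. The groups did not separate fully for any of the 10, while they did for 8.56% of all probes, 3.86% with monocrotaline lower.

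**Figure D1:**
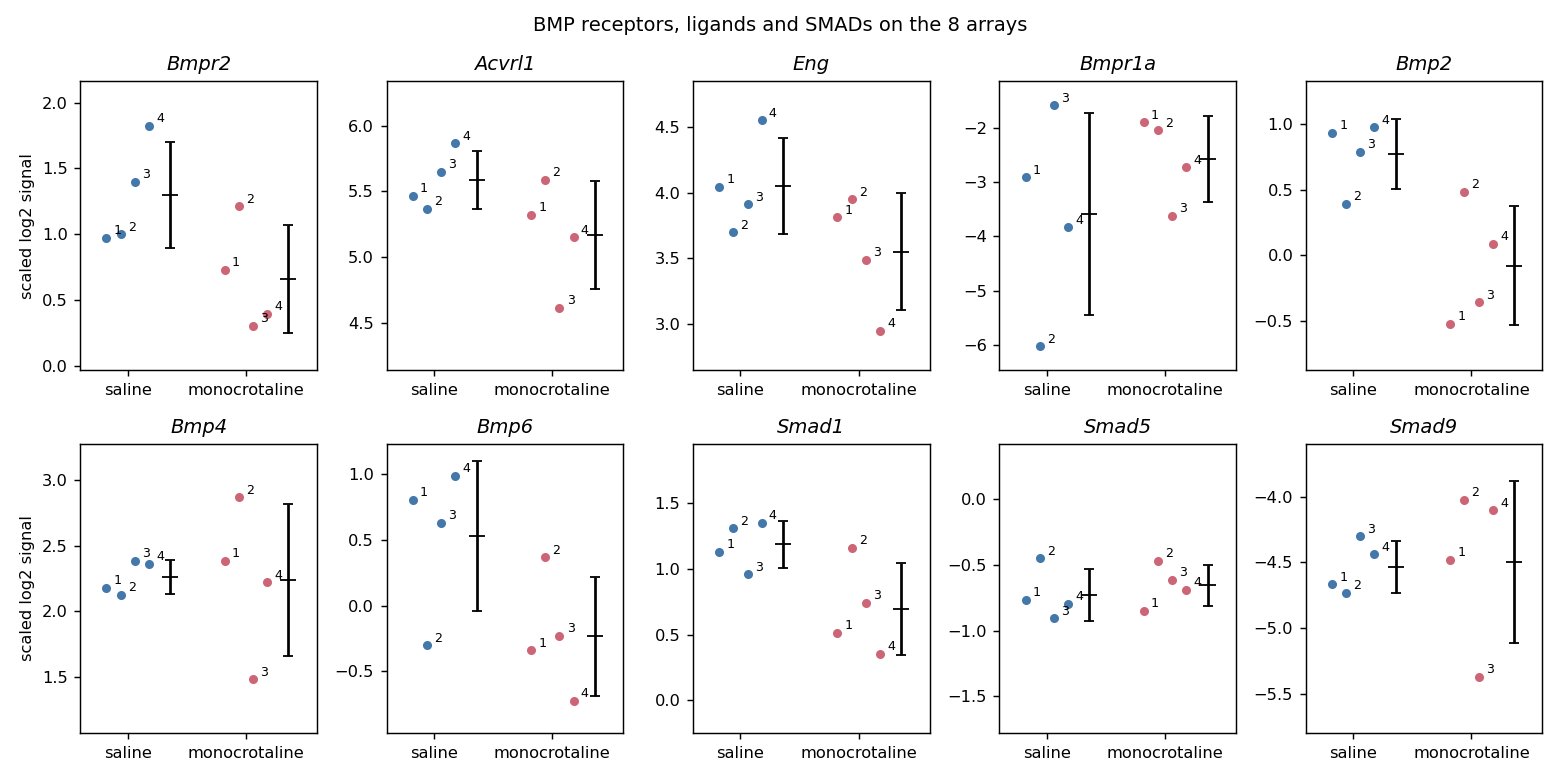
Scaled log2 signal (vertical axis, its range set for each gene) of the 10 genes on each array; points are arrays, the number beside a point is the replicate, and bars give mean ± SD of 4 arrays. Saline replicate 4 was highest for 6 genes (Bmpr2, Acvrl1, Eng, Bmp2, Bmp6 and Smad1), and for those 6 the lowest array was always a monocrotaline one.

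Bmpr2, the type II receptor, had scaled log2 signals of 0.97, 1.00, 1.40 and 1.83 on saline replicates 1 to 4 and of 0.73, 1.21, 0.30 and 0.39 on monocrotaline replicates 1 to 4. Monocrotaline replicates 1, 3 and 4 lay below every saline array, and replicate 2 lay among them. The mean went from 1.30 ± 0.40 to 0.66 ± 0.41 (SD, n = 4 each), a log2 fold change of -0.64 ± 0.26 (SE) with a 95% interval of -1.24 to -0.04, and it did not pass (limma adjusted p = 0.335). The 2 spots of the probe differed far less than the arrays did, with an SD between spots of 0.0014 to 0.0387 on an array.

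Acvrl1 encodes ALK1, the type I receptor that endothelium uses for BMP9 and BMP10. Its saline signals were 5.47, 5.37, 5.65 and 5.87, and its monocrotaline signals were 5.32, 5.59, 4.61 and 5.15. As for Bmpr2, replicate 2 was the only monocrotaline array within the saline range. The log2 fold change was -0.42 ± 0.22 (SE, 95% interval -0.92 to 0.08, limma adjusted p = 0.433).

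Eng encodes endoglin, a co-receptor that presents ligand to ALK1. It read 4.05, 3.70, 3.91 and 4.55 on the saline arrays and 3.81, 3.95, 3.49 and 2.95 on the monocrotaline arrays. Here replicates 3 and 4 were the 2 monocrotaline arrays below the saline range. The log2 fold change was -0.50 ± 0.26 (SE, 95% interval -1.10 to 0.10, limma adjusted p = 0.429).

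Bmpr1a, the type I receptor ALK3, stood apart from the other receptors. Its saline signals ran from -6.02 on replicate 2, where neither spot was well above background, through -3.83 and -2.91 to -1.59 on replicate 3. Its monocrotaline signals of -1.91, -2.05, -3.62 and -2.73 all fell inside that range. The log2 fold change of 1.01 ± 0.86 (SE) had a 95% interval of -0.96 to 2.98 (limma adjusted p = 0.645). It came to 0.20 without saline replicate 2, so the value rests largely on 1 dim array.
Marker lists of fibroblasts, smooth muscle and pericytes, and alveolar cells all had the same order of saline arrays as Bmpr1a. The mean scaled log2 signal of the fibroblast markers was -2.19 on replicate 2, -0.76 on replicate 4, 0.50 on replicate 1 and 1.39 on replicate 3. On the monocrotaline arrays Bmpr1a and the smooth muscle and pericyte markers were lowest on replicate 3, the fibroblast markers on replicate 4 and the alveolar markers on replicate 1. All 9 markers of that list were measured, 0 of them passed the test, and their summed scaled signal was 10.4 to 80.2 on saline arrays and 39.5 to 96.5 on monocrotaline arrays. The smooth muscle and pericyte markers (10 of 10 measured, 0 called) summed to 8.22 to 50.3 and 12.4 to 51.6, and the alveolar markers (9 of 10 measured, 0 called) to 60.99 to 206 and 105 to 161. The part of these cells in the Bmpr1a signal was not tested.

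Of the ligands, Bmp2 had the lowest log2 fold change of the 10 genes. It read 0.93, 0.39, 0.79 and 0.97 on the saline arrays and -0.52, 0.48, -0.36 and 0.09 on the monocrotaline arrays. Saline replicate 2 and monocrotaline replicate 2 were the pair that overlapped. The mean went from 0.77 ± 0.26 to -0.08 ± 0.45 (SD, n = 4 each), a 1.80-fold lower signal with a log2 fold change of -0.85 ± 0.24 (SE, 95% interval -1.40 to -0.30, limma adjusted p = 0.17). Its adjusted p was lowest, at 0.0597, without monocrotaline replicate 2.

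Bmp6, a ligand that liver endothelium releases to set iron uptake, read 0.80, -0.30, 0.63 and 0.99 on the saline arrays and -0.34, 0.37, -0.23 and -0.73 on the monocrotaline arrays. Saline replicate 2 lay among the monocrotaline arrays and monocrotaline replicate 2 among the saline ones. The log2 fold change was -0.76 ± 0.32 (SE, 95% interval -1.50 to -0.02, limma adjusted p = 0.351).

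Bmp4, a ligand made by lung mesenchyme and endothelium, read 2.18, 2.12, 2.38 and 2.36 on the saline arrays, the narrowest saline spread of the 10 genes (SD 0.13). Its monocrotaline signals of 2.38, 2.87, 1.48 and 2.22 reached above and below that range. The log2 fold change was -0.02 ± 0.27 (SE, 95% interval -0.64 to 0.59, limma adjusted p = 0.982).

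Among the SMADs, Smad1 had a negative log2 fold change, as Bmpr2, Acvrl1 and Eng did, and the other two lay near 0. Smad1 read 1.13, 1.31, 0.96 and 1.35 on the saline arrays and 0.51, 1.16, 0.74 and 0.35 on the monocrotaline arrays, with replicate 2 once more the only monocrotaline array in the saline range. Its log2 fold change was -0.49 ± 0.19 (SE, 95% interval -0.94 to -0.05, limma adjusted p = 0.317).
Smad5 was the steadiest of the 10 genes, at -0.77, -0.45, -0.91 and -0.80 against -0.85, -0.47, -0.61 and -0.69. Its log2 fold change was 0.07 ± 0.14 (SE, 95% interval -0.26 to 0.40, limma adjusted p = 0.86). Smad9, which encodes the SMAD once called SMAD8, was dim, at -4.67, -4.73, -4.30 and -4.44 on saline arrays and -4.48, -4.02, -5.37 and -4.10 on monocrotaline arrays. Its spots were well above background on all 8 arrays, but the 2 spots differed by an SD of up to 0.66 within an array, and its log2 fold change was 0.04 ± 0.29 (SE, 95% interval -0.63 to 0.71, limma adjusted p = 0.971).

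Endothelial markers were lowest on monocrotaline replicates 3 and 4 and highest on saline replicate 4, the array on which Bmpr2, Acvrl1, Eng, Bmp2, Bmp6 and Smad1 were highest too; Smad5 and Bmpr1a were lowest on saline arrays. Of 24 endothelial markers listed, 19 were measured with 21 probes. All 21 had a negative log2 fold change, from -1.05 to -0.07 with a median of -0.59, and 0 passed the test. Their summed scaled signal was 321 to 463 on saline arrays and 207 to 344 on monocrotaline arrays. Pecam1, which encodes CD31 itself, had a log2 fold change of -0.30 ± 0.19 (SE, limma adjusted p = 0.51), and Cdh5, the endothelial cadherin, of -0.47 ± 0.25 (SE, adjusted p = 0.433). Over the 18 markers other than Eng, the mean scaled log2 signal was 2.73, 2.63, 2.84 and 3.24 on saline replicates 1 to 4 and 2.32, 2.76, 2.08 and 1.98 on monocrotaline replicates 1 to 4, a difference of -0.57 (p = 0.0857 by an exact permutation test, two-sided, which cannot go below 0.0286 with 4 arrays a group).
T and NK cell markers went the other way. All 16 were measured, and 4 passed as higher and 0 as lower, against 1.36% and 0.0739% of all probes tested. The median log2 fold change was 1.51. Their summed scaled signal was 4.20 to 9.61 on saline arrays and 16.9 to 31.1 on monocrotaline arrays. Median log2 fold changes were 1.25 for erythroid, 0.86 for neutrophil and 0.45 for B and plasma cell markers. They were 0.25 for platelet, 0.02 for macrophage and monocyte and -0.51 for lymphatic endothelial markers. Each of these 6 lists had 0 called. Airway secretory and ciliated markers (7 of 10 measured, 0 called) had mean scaled log2 signals of 1.31 and 1.44 on monocrotaline replicates 1 and 3, while replicates 2 and 4 (-1.29 and -1.02) lay within the saline range of -2.82 to -0.94. Their summed scaled signal was 45.3 to 60.4 on saline arrays and 28.7 to 59.5 on monocrotaline arrays. Fewer endothelial cells in a sample and less RNA of a gene per endothelial cell cannot be told apart in such bulk signals.

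**Figure D2:**
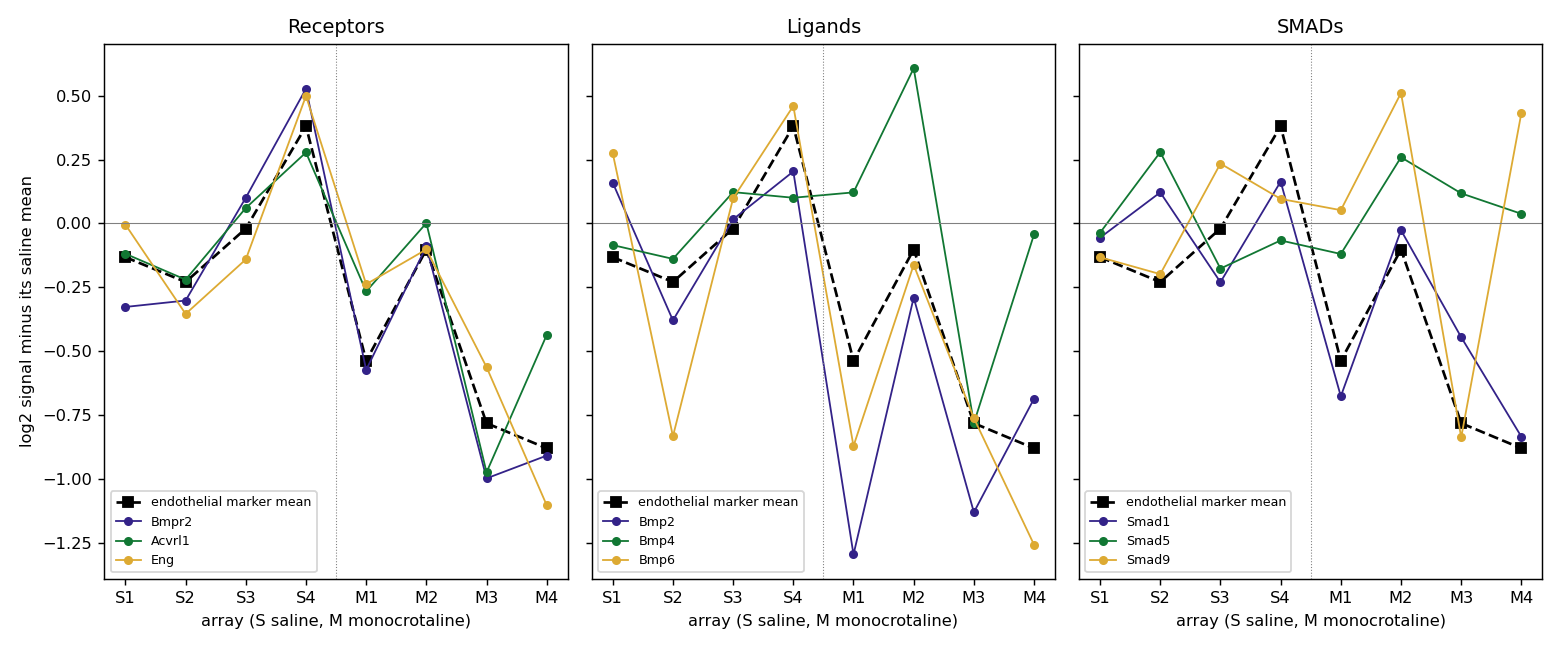
Log2 signal of 9 of the genes on each array (S1 to S4 saline, M1 to M4 monocrotaline), each minus its own saline mean, beside the mean of 18 endothelial markers (black squares, dashed); Bmpr1a is left out for its range. Bmpr2 stays close to the dashed line on all 8 arrays, while Bmp4, Smad5 and Smad9 lie above it on monocrotaline replicates 1, 2 and 4.

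When each array was centred on that endothelial marker mean, the log2 fold changes of Bmpr2, Acvrl1, Eng and Smad1 lay near 0, though none had passed the test as lower before. Centring takes the same endothelial marker difference of -0.57 out of every log2 fold change, so all 10 genes moved up alike. The marker probes ran from -1.05 to -0.07, so the size of that shift, and which genes came near 0, depend on the markers averaged. Bmpr2 then had a log2 fold change of -0.07 ± 0.21 (SE, 95% interval -0.53 to 0.40), Acvrl1 one of 0.16 ± 0.22 (-0.34 to 0.65) and Eng one of 0.07 ± 0.22 (-0.42 to 0.57). Smad1 came to 0.08 ± 0.23 (-0.44 to 0.60). Bmp2 and Bmp6 kept a negative sign, at -0.27 ± 0.26 (-0.85 to 0.30) and -0.19 ± 0.27 (-0.78 to 0.40). Bmp4, Smad5, Smad9 and Bmpr1a came to 0.55 ± 0.25 (-0.01 to 1.11), 0.65 ± 0.27 (0.04 to 1.26), 0.61 ± 0.30 (-0.05 to 1.28) and 1.58 ± 0.75 (-0.08 to 3.25). Of the 10 genes 0 passed limma's test on this scale (adjusted p from 0.154 to 0.796), while 2.63% of all probes passed as higher and 0.0% as lower. At an unadjusted p under 0.05, 1 of the 10 (Smad5) was higher and 0 lower, against 30.9% and 0.296% of all probes. This scaling raised the median log2 fold change of all probes to 0.55 and that of the 10 genes to 0.12, so the value of Smad5 lay close to that of the median probe.

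**Figure D3:**
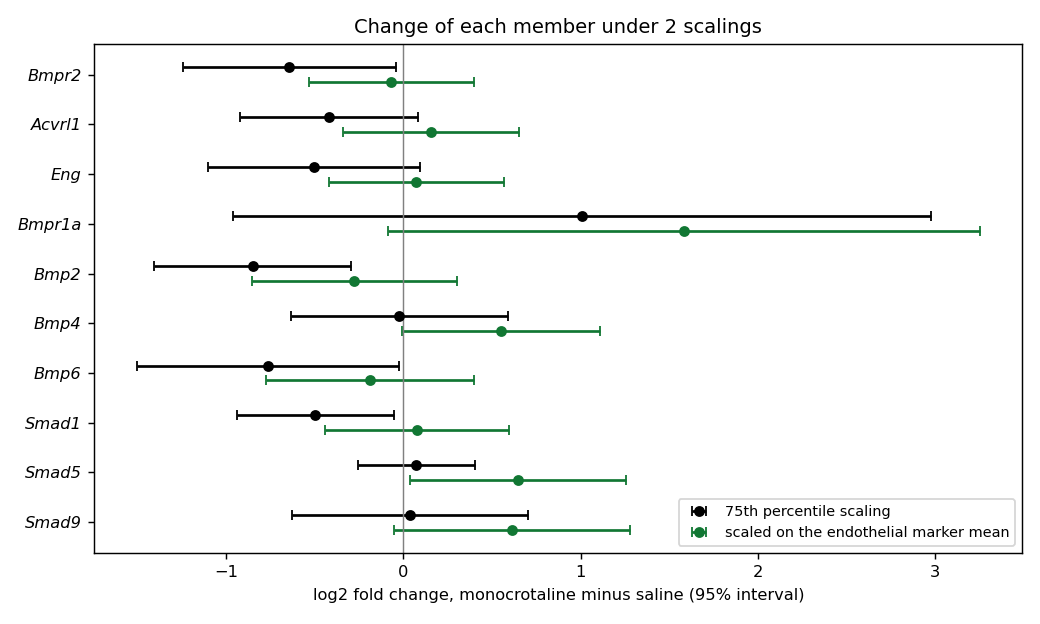
Log2 fold change (monocrotaline minus saline) of each gene with its 95% interval from limma, after 75th percentile scaling (black) and after centring on the endothelial marker mean (green). The values of Bmpr2, Acvrl1, Eng and Smad1 move from between -0.64 and -0.42 to between -0.07 and 0.16. The shift is the same for every gene.

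The spread between arrays of one group, which leaves the group difference out, was looked at on both scales after the values above were seen. The pooled SD within groups of Bmpr2 was 0.41 before centring on the endothelial markers and 0.14 after it, so samples of one group differed less in Bmpr2 relative to endothelial markers than in Bmpr2 itself. It went from 0.41 to 0.19 for Eng, from 0.33 to 0.20 for Acvrl1, from 0.52 to 0.33 for Bmp6 and from 0.42 to 0.30 for Bmp4. The decrease was smaller for Bmp2 (0.37 to 0.32), Smad1 (0.28 to 0.24), Smad9 (0.46 to 0.42) and Bmpr1a (1.43 to 1.36), and Smad5 went up, from 0.18 to 0.36. In all the pooled SD was smaller after centring for 9 of the 10 genes, against 19.2% of all probes tested. The SD over all 8 arrays, group difference included, was smaller for 6 of the 10, against 14.3% of all probes. Outside the 10 genes, that SD went from 0.405 to 0.081 for Smad7 and from 0.285 to 0.498 for Smad2, so a decrease is not particular to the 10.

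The genes closest to Bmpr2 in their profile over the 8 arrays were sought among 13567 tested probes with a symbol, by the root mean square difference after each profile was centred on its own mean. The 5 closest were Rgs12 (0.087), Ramp2 (0.0955), Zfp503 (0.105), Adgrl3 (0.107) and Bmyc (0.108), against a median of 0.54 over all candidates. Ramp2 is on the list of endothelial markers. Of the other 9 genes of the set, Acvrl1 (0.21) and Eng (0.24) were closest to Bmpr2, and Smad5 (0.53) and Bmpr1a (1.42) were farthest.

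A ratio of 2 probes on the same array does not change when 1 value is subtracted from the whole array, as in percentile, median or endothelial marker scaling. Quantile normalization and normexp can change it. Of the 45 pairs among the 10 genes, 4 had ratios that did not overlap between the groups, which is 8.89% of them, against 9.43% of all pairs of tested probes. The 4 were Bmp2 over Bmp4, Bmp2 over Smad9, Acvrl1 over Bmp4 and Smad1 over Smad5. The log2 ratio of Bmp2 to Bmp4 was -1.25, -1.73, -1.60 and -1.39 on the saline arrays and -2.91, -2.39, -1.84 and -2.13 on the monocrotaline arrays, a difference of -0.83 in which all 4 monocrotaline arrays lay lower. That of Smad1 to Smad5 went from 1.92 ± 0.16 to 1.35 ± 0.24 (SD, n = 4 each). Each of the 4 had p = 0.0286 by a two-sided exact permutation test, the smallest it can give, and an adjusted p = 0.286 over the 45 pairs, so none held after adjustment.

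The rest of the pathway was described by 6 further lists with 60 genes measured, and 0 of their probes passed the test. The list of BMP target genes lay lowest. Its 14 measured genes had 16 probes, of which 11 had a negative log2 fold change, with a median of -0.47; 8 of the 16 were lower at an unadjusted p under 0.05 (7.06% of all probes), and 3 were lower with groups that did not overlap (3.86% of all probes). Tmem100, a membrane protein that ALK1 signalling induces in endothelium, read 4.18, 4.19, 4.71 and 4.55 on the saline arrays and 2.76, 3.85, 3.01 and 3.00 on the monocrotaline arrays. All 4 monocrotaline arrays lay below the saline range, and the log2 fold change of -1.25 ± 0.25 (SE, limma adjusted p = 0.0573) came to -0.68 on the endothelial scale. It passed with limma's trend and robust options (adjusted p = 0.0428) and without monocrotaline replicate 2 (adjusted p = 0.02). It did not pass under the other 19 alternatives, with limma adjusted p from 0.0506 (probes above background on all 8 arrays) to 0.339 (without monocrotaline replicates 1 and 3).
Apln, the ligand apelin and the brightest probe of that list, was at 0.10 ± 0.29. Id1 and Id3, inhibitors of basic helix-loop-helix factors and the textbook readout of SMAD1 and SMAD5 activity, were at -0.72 ± 0.30 and -0.73 ± 0.25 (log2 fold change ± SE) and at -0.15 and -0.16 on the endothelial scale. Of the other members of the Id family, Id2 lay near 0, at 0.02 ± 0.30, and Id4 was at 0.48 ± 0.45. On the endothelial scale Id2 and Id4 came to 0.60 and 1.05. Hey1, a Notch and BMP target, was at -1.18 ± 0.34 (limma adjusted p = 0.169) and at -0.61 on the endothelial scale. Of the other Hey genes on the list, Hey2 was at -0.06 ± 0.59 by 1 probe and 0.11 ± 0.39 by the other. Heyl was at 1.04 ± 0.64 and was well above background on 2 saline and 4 monocrotaline arrays. The Id and Hey genes were picked for mention after their values were seen.

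**Figure D4:**
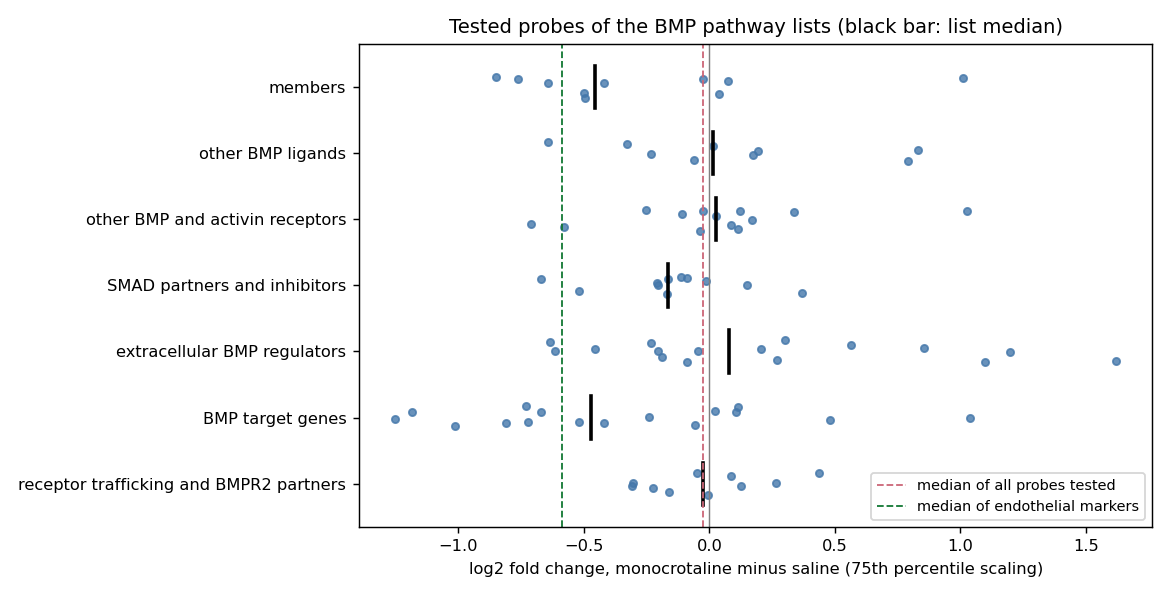
Log2 fold change (monocrotaline minus saline) of every tested probe of the 10 genes and of the other pathway lists; points are probes and black bars are list medians. The medians of the 10 genes (-0.46) and of the BMP targets (-0.47) lie between that of all probes (-0.02, red dashes) and that of the endothelial markers (-0.59, green dashes).

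The list of SMAD partners and inhibitors (9 genes measured, 11 probes) had a median of -0.17, with 9 of the 11 values negative. Smad6, an inhibitory SMAD that blocks the type I receptors and is itself a BMP target, had the largest difference there, at -0.67 ± 0.26 (limma adjusted p = 0.32), which became -0.10 on the endothelial scale. Smurf2, a ubiquitin ligase that marks SMADs for breakdown and the brightest probe there, was at -0.17 ± 0.19.

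Other BMP and activin receptors (10 genes measured, 13 probes) had a median of 0.03. Acvr2b, an activin type II receptor that also takes BMPs, had 2 probes, at -0.71 ± 0.24 and -0.58 ± 0.26 (adjusted p = 0.252 and 0.37), and at -0.13 and -0.01 on the endothelial scale. Acvr1c, the type I receptor ALK7, was at 1.03 ± 0.57 and was well above background on 1 saline array and 3 monocrotaline arrays.

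Other ligands (8 genes measured, 9 probes) had a median of 0.02. Inhbb, an activin subunit and the brightest of them, was at 0.02 ± 0.23 by that probe and at -0.33 ± 0.24 by its other one. Bmp5 had the largest difference, 0.83 ± 0.76, with 1 saline and 3 monocrotaline arrays above background. Bmp7 had the lowest adjusted p of the list, at 0.79 ± 0.21 (limma adjusted p = 0.149), and was above background on every array. Bmp8a lay the other way, at -0.64 ± 0.23 (limma adjusted p = 0.28). Bmp7 and Bmp8a were picked for mention after their values were seen. The probes of Gdf2 and Bmp10, the ligands of ALK1, and of Bmp15 were well above background on fewer than 4 of the 8 arrays and were not tested. 

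Extracellular regulators (12 genes measured, 16 probes) had a median of 0.08 and ran from -0.64 to 1.62. Crim1, a membrane protein that holds BMPs back at the cell surface and the brightest of them, was at -0.62 ± 0.25 (adjusted p = 0.333) and at -0.04 on the endothelial scale. Chrdl1, a secreted BMP antagonist, was at 1.62 ± 0.88; like Bmpr1a it was lowest on saline replicate 2 (-6.83) and reached -2.39 on saline replicate 3. The list of receptor trafficking and BMPR2 partners (9 genes measured, 10 probes) had a median of -0.03. Cav1, the main protein of caveolae, was at -0.31 ± 0.18, and Limk1, a kinase that binds the tail of BMPR2, at 0.43 ± 0.23.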

How the data were processed

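Total RNA (10 ng, amplified and marked with Cy3, per the labels' protocols) of 8 samples was read on 8 arrays of 1 colour. The authors ran Agilent's Feature Extraction software (version 10.7.3.1 in the headers). Per the file headers, its processed signal is an intensity corrected for background and spatial trend on its own array. Outlier and background flags are other values of 0 or 1, per the file headers. Values of the deposited table had log2 applied to them 2 times: 2 to the power of them equals the quantile-normalized log2 processed signal of the 62976 features (median absolute difference 9.89e-10). Limma 3.6.9 is listed in the submitters' processing notes, and its use there is not stated. Samples were grouped by their titles.

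Flagged outlier spots and 4259 control spots were left out, spots of a probe were averaged as log2, and each array's 75th percentile was set to 0. Probes well above background on at least 4 of 8 arrays were kept (21652 of 30367; 17 lacked a value on some array). Probes were named by accession through RefSeq's gene table (assembly GRCr8): 17998 matched. Monocrotaline was compared with saline probe by probe in R 4.3.3 with limma 3.58.1 (lmFit and eBayes, two-sided, Benjamini-Hochberg over all probes tested); intervals use limma's moderated SE. The 21 alternatives changed scaling, background correction, source table, filter, probe choice, variance model, array weights, pairing or the arrays included. Permutation tests used scipy 1.17.1. On simulated data of this comparison (21652 probes) 42% of 100 probes changed by 1 log2 unit and 84% of 100 changed by 2 were called. Of the 133 calls 7 were false. The noise was drawn for each probe on its own, without shifts that many probes share, and changes under 1 log2 unit were not simulated.

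Named beside the 10 genes were, in each other pathway list, any called gene, the brightest probe and the probe with the largest change, the 5 nearest profiles to Bmpr2, Pecam1 and Cdh5. The genes and lists were chosen with earlier results of these data known.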

Additional observations from a re-analysis of the deposited data

Results flagged for a closer look

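Of 62 sets of 4 arrays checked (the genes named here, the share of spots above background and the endothelial marker mean, in each group), 1 held an array far from the others by Dixon's test: Cav1 on saline replicate 4, at a scaled log2 signal of 6.17 against 5.61 to 5.70 on the other saline arrays. Chance marks about 1 set in 20. The same array had the highest endothelial marker mean, 3.24.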

How the results depend on the processing

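The count of 0 called among the 10 genes was the same under all 21 alternatives (Bmpr1a was not tested under the filter on all 8 arrays). Of all probes tested 1.36% were called higher and 0.0739% lower. These shares became 2.63% and 0.0% with endothelial marker scaling, 0.725% and 0.0297% with no filter (30350 probes tested), and 0.286% and 0.00462% without monocrotaline replicates 1 and 3 (chosen after seeing their airway markers). The lower share became 0.291% with array weights and 0.111% with normexp and quantile normalization. With 1 array left out the shares ran from 0.249% (without saline replicate 1) to 1.46% higher and from 0.0% to 0.494% (without monocrotaline replicate 2) lower. Scaling on endothelial markers called 1 other ligand (Bmp7) and 1 extracellular regulator (Fst); the target genes had 1 call (Tmem100) with trend and robust options and 0 to 1 with 1 array left out. With a replicate block 0.0% of probes were higher and 0.0% lower. Same-numbered arrays shared a slide column, and their deviations from the group means had correlations of -0.335 to -0.016. With 4 arrays a group these do not settle whether the numbers pair the samples, and the main test took them as unpaired. The cause of these changes was not tested.

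Signs turned with endothelial scaling for Acvrl1 (0.16), Eng (0.074), Smad1 (0.08), Bmp4 (0.55), Smurf2 (0.41) and Cav1 (0.27). Bmp4 also turned with quantile normalization (0.027), normexp with quantile (0.071) or 75th percentile scaling (0.029), the deposited table (0.031), array weights (0.061) and the 2 arrays left out (0.28), and spanned -0.23 to 0.23 with 1 array left out. Smad9 turned with quantile normalization (-0.041), median scaling (-0.002), both normexp settings (-0.017 and -0.097) and the deposited table (-0.071), and spanned -0.12 to 0.33 with 1 array left out. Bmp5 turned with normexp and 75th percentile scaling (-0.021), and Inhbb with median scaling (-0.027), the deposited table (-0.01) and array weights (-0.13). With 1 array left out Inhbb spanned -0.14 to 0.16 and Apln -0.078 to 0.37. Over the 20 alternatives other than endothelial scaling Bmpr2 spanned -0.82 to -0.47, Bmp2 -1.04 to -0.49 and Bmp6 -1.04 to -0.60.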
